A study of Mus musculus with 12 samples.

Results

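The ligands of the TNF family described here are 7 genes read by 11 of the 45101 probe sets on the array, in T cells with and without defective IL-2 receptors. The ligands were picked by family membership, as 2 probe sets of Tnfsf11, 1 each of Tnf, Lta, Ltb and Cd40lg, 2 of Fasl and 3 of Tnfsf10. The list was drawn up with results of these arrays in view, and Tnfsf11 was singled out with its values known. Its levels and differences are therefore given as a description, with no test, and only the other 6 genes, with 9 probe sets, are tested. Of the 11 probe sets, 10 passed the filter on low values. The Tnfsf11 probe sets are called by the endings of their names, _AT and _A_AT.

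The arrays hold CD4+ CD25+ spleen T cells in 4 groups of 3 samples. Transgenic Treg cells and C57BL/6 Treg cells came straight from spleen. Transgenic effector cells and C57BL/6 effector cells came from whole spleen cells activated for 48 hours through anti-CD3, which stimulates T cells by their receptor complex. The transgenic mice, named C57BL/6-2Rbeta-WT/thymus transgenic in the labels, came from breeding to IL-2Rbeta-deficient mice, and the labels call their T cells IL-2R defective. The sources used here do not give the promoter that drives the transgene. Treg arrays pooled mice, 4, 8 and 3 per transgenic array and 8, 8 and 15 per C57BL/6 array, whereas each effector array held 1 mouse. Transgenic Treg samples were 33, 13 and 7 to 16 weeks old and C57BL/6 Treg samples 12, 12 and 10 weeks old. Transgenic effector samples were 15, 14 and 9 weeks old and C57BL/6 effector samples 10, 14 and 14 weeks old. For transgenic effector array 3 the purification label is that of fresh cells, against a title and source of activated ones. Values without it are therefore given beside most single differences that use it. Group overlaps and medians over probe sets include it.

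Values are log2 GCRMA values, a background-corrected and normalized summary of each probe set, so that a difference of 1 is a change of 2-fold in intensity. The lowest values on the Treg arrays were 0.942 to 0.957 and those on the effector arrays 0.296 to 0.326, so levels set across the populations may carry a scale difference. Levels below a log2 value of 5 are treated as near the floor, where the size of a difference depends on the background correction. The tables used here do not pair other probe sets with genes, so the disrupted receptor gene and the markers of T cells and other cell types were not looked up. In sorted cells, fewer cells that make a transcript and less transcript per cell cannot be told apart.

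Ligands of the TNF family are mostly made as membrane proteins that act as trimers. They bind TNF receptor family members, which signal through TRAF adaptors to NF-kappaB or, where the receptor carries a death domain, to caspases. T cells use several of them after activation. Tnfsf11 (RANKL) binds RANK and drives osteoclast formation and the maturation of thymic medullary epithelium, Cd40lg licenses B cells and dendritic cells, and Fasl kills Fas-bearing cells, activated T cells included. IL-2 is known to sensitise activated T cells to Fas-mediated death.

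Promoter windows, from 250 bases before to 50 bases after the gene start, were found in RefSeq (GRCm38.p6) for 6 of the 7 genes. Shown are those of Tnfsf11 (chr14:78307994-78308293, minus strand) and Fasl (chr1:161788446-161788745, minus strand), whose effector levels lay on opposite sides of the C57BL/6 levels, and of Tnfsf10 (chr3:27316827-27317126, plus strand), the 1 tested gene with a strain call. Each runs 5′ to 3′, and capitals mark the letters GGAAA (the core that NFAT factors bind) or TATAAA (the TATA box), on either strand.
Tnfsf11: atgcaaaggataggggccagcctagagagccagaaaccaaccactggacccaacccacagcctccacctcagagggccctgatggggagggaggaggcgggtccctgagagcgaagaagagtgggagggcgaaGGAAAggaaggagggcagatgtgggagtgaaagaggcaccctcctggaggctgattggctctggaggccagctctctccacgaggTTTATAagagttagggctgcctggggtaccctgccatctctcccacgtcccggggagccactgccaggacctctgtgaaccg
Fasl: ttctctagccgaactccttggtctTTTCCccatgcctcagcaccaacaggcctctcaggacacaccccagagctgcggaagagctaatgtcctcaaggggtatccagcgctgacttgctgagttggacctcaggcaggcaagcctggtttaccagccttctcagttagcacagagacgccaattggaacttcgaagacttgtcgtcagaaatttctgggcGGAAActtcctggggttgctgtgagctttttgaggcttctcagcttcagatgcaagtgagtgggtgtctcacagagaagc
Tnfsf10: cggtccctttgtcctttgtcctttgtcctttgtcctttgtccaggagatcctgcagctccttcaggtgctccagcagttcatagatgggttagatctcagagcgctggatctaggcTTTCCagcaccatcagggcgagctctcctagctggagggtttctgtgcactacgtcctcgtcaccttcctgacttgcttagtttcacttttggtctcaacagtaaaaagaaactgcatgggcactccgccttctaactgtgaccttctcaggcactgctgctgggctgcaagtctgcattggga
GGAAA was present in the windows of all 6 genes and in 61.3% of 32851 promoter windows. TATAAA was present in those of Tnfsf11, Tnf and Lta, on the opposite strand in Tnfsf11, and in 13.6% of all windows. TTCNNNGAA, the pattern of STAT sites, was found in Lta, with 2 matches, and in Ltb, with 1, and in 8.30% of all windows. A subset of NF-kappaB sites, GGG, then 2 free bases, then TTTCC, was found in Ltb alone among the 6 genes, where it overlaps GGAAA, and in 1.63% of all windows. The Tnfsf11 window was 61.7% G and C and the Fasl window 53.3%, against a median of 52.7%. These matches describe letters in a window and are not evidence of binding.

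Tnfsf11 was higher in transgenic than in C57BL/6 effector cells on every array. The _AT probe set read 8.75, 8.70 and 8.28 on transgenic effector arrays, against 5.39, 5.10 and 4.99 on C57BL/6 effector arrays. The C57BL/6 arrays lay close to 5 and the transgenic arrays well above it. The log2 difference was 3.41 with a standard error of 0.26, or 10.7-fold. The _A_AT probe set read 8.10, 7.99 and 6.04 on transgenic effector arrays, against 5.29, 4.44 and 4.40 on C57BL/6 effector arrays. Transgenic array 3 was the lowest of its group on both probe sets, and the groups did not overlap on either. Of all tested probe sets 22.8% did not overlap between the effector groups, 12.7% higher in transgenic cells. The difference on _A_AT was 2.66 with a standard error of 0.53. Without transgenic effector array 3 the differences were 3.56 on _AT and 3.33 on _A_AT. Since C57BL/6 values lay near the floor, the folds depend on the background correction, and quantile normalization brought the differences to 2.91 and 2.27.

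In Treg cells Tnfsf11 was higher in transgenic mice as well. The _AT probe set read 9.89, 11 and 10.68 on transgenic Treg arrays, against 9.13, 9.43 and 9.21 on C57BL/6 Treg arrays. All 6 values lay well above the floor, and the groups did not overlap. The log2 difference was 1.26 with a standard error of 0.26, or 2.40-fold. The _A_AT probe set read 8.72, 9.46 and 9.35 on transgenic Treg arrays, against 7.04, 7.92 and 8.41 on C57BL/6 Treg arrays. Again the groups did not overlap, with a difference of 1.38 and a standard error of 0.53. Of all tested probe sets 14.8% did not overlap between the Treg groups, 7.65% higher in transgenic cells. The lowest transgenic value on both probe sets came from array 1, the pool of 33-week-old mice.

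The hybridization spikes, transcripts added to the sample before hybridization, read 10.52, 10.50 and 10.79 on transgenic Treg arrays and 12.65, 11.63 and 10.50 on C57BL/6 Treg arrays (log2 means over 18 probe sets). Across the C57BL/6 Treg arrays both Tnfsf11 probe sets were lowest on array 1, where the spikes read highest, and the _A_AT values ranked in the opposite order to the spikes. With the spike reading as a covariate the Treg differences of Tnfsf11 were 1.25 on _AT and 0.79 on _A_AT.

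Both probe sets of Tnfsf11 ranked the 4 group means alike, from transgenic Treg through C57BL/6 Treg and transgenic effector to C57BL/6 effector cells. On _AT no neighbouring groups overlapped, and on _A_AT C57BL/6 Treg and transgenic effector cells did. The strain difference in Treg minus that in effector cells was -2.15 (standard error 0.37) on _AT and -1.28 (standard error 0.75) on _A_AT. These were -2.30 and -1.95 without transgenic effector array 3. The probe sets correlated at 0.96 over the 12 arrays, 0.88 over the 6 Treg arrays and 0.92 over the 6 effector arrays, which share their group structure.

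**Figure D1:**
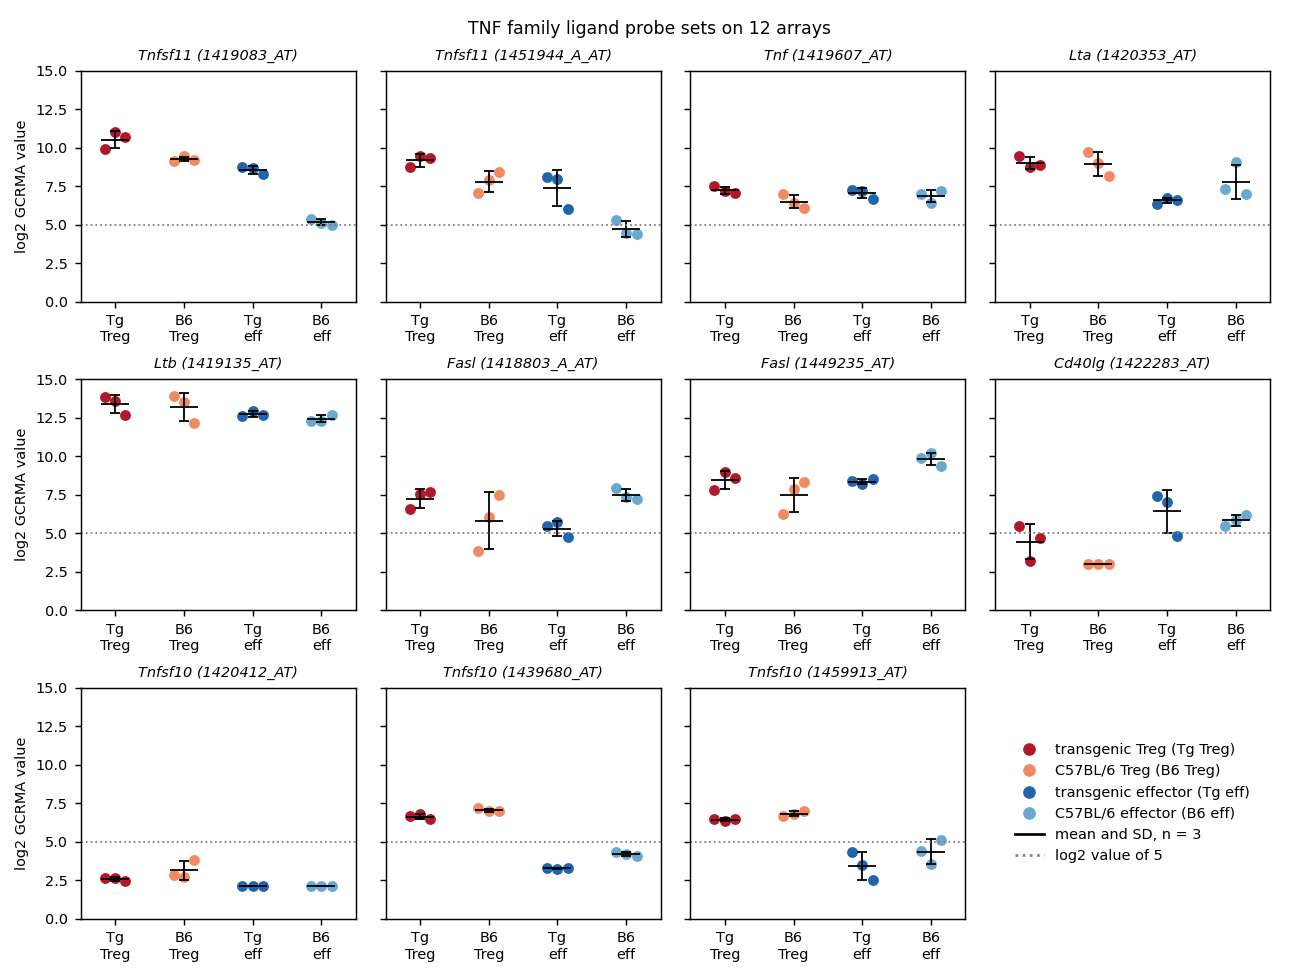
Log2 GCRMA value (vertical axis) of each of the 11 ligand probe sets on each of 12 arrays, by group on the horizontal axis. Points are arrays, bars are the mean and SD of 3 arrays, and the dotted line is a log2 value of 5. Tnfsf11 on its _AT probe set averages 10.52 in transgenic Treg cells and 5.16 in C57BL/6 effector cells, with the other groups between, while Ltb lies above 12 on every array.

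Among the tested probe sets that are not ligands of the list, the closest in pattern to the _AT probe set of Tnfsf11 over all 12 arrays was 1420357_S_AT, at a Pearson correlation of 0.966, followed by 1435710_AT at 0.963. Probe set 1420357_S_AT was also the closest over the 6 effector arrays (0.999). It averaged 7.52 ± 0.53 in transgenic Treg, 7.01 ± 0.63 in C57BL/6 Treg, 6.68 ± 0.18 in transgenic effector and 4.31 ± 0.24 in C57BL/6 effector cells (log2, SD, n = 3). The 5 closest probe sets over the 6 Treg arrays correlated at 0.976 to 0.996. These are the highest of many correlations and are given as a description.

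Among the other 6 genes, 1 of the 8 probe sets that passed the filter (3 or more arrays at a log2 of 5 or above) changed between strains in effector cells. This was 1439680_AT of Tnfsf10, which fell and which passed the filter through the Treg arrays alone. In the same limma fit 2.99% of all tested probe sets were called, 1.92% higher and 1.08% lower in transgenic cells, at a Benjamini-Hochberg adjusted p under 0.05. In 4 of the 8 probe sets the transgenic effector arrays did not overlap the C57BL/6 effector arrays, all 4 of them lower in transgenic cells (Lta, both of Fasl, and 1439680_AT), against 22.8% of all tested probe sets in either direction, 12.7% higher and 10.1% lower. The median difference was -0.92 over the 8 and -0.0053 over all tested probe sets, and Fasl and Tnfsf10 count with 2 probe sets each among the 8.

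Fasl, the ligand that triggers death through Fas, lay lower in transgenic effector cells on both probe sets. Probe set 1418803_A_AT read 5.47, 5.71 and 4.73 on transgenic effector arrays, against 7.90, 7.33 and 7.22 on C57BL/6 effector arrays. The groups lay more than a log2 unit apart, with transgenic array 3 below 5. The difference of -2.18 (standard error 0.72) did not pass the limma test over all probe sets (adjusted p = 0.16). Probe set 1449235_AT read 8.36, 8.17 and 8.50 on transgenic effector arrays, against 9.90, 10.18 and 9.38 on C57BL/6 effector arrays. Here too every transgenic value was below every C57BL/6 value, and the difference was -1.48 (standard error 0.47, limma adjusted p = 0.144). Without transgenic effector array 3 the differences were -1.89 and -1.55 (limma adjusted p = 0.331 and 0.211).

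Fasl spread widely among C57BL/6 Treg arrays, and the variance in the test was shared by the 4 groups. Fitted to the 6 effector arrays alone, both Fasl probe sets passed (limma adjusted p = 0.0266 for 1418803_A_AT and 0.0359 for 1449235_AT). They also passed without C57BL/6 Treg array 1 (limma adjusted p = 0.0232 and 0.0272), but with no other single array left out. With array weights they passed (limma adjusted p = 0.00531 and 0.00405), in a setting that called 3033 of all 18271 tested probe sets. They did not pass without a filter (limma adjusted p = 0.385 and 0.352) or with quantile normalization (limma adjusted p = 0.296 and 0.256).

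In Treg cells the Fasl means were higher in transgenic mice, with groups that overlapped. Probe set 1418803_A_AT read 6.54, 7.52 and 7.65 on transgenic Treg arrays, against 3.83, 6.08 and 7.51 on C57BL/6 Treg arrays. The C57BL/6 arrays spread over more than 3 log2 units, and array 1 was lowest. Probe set 1449235_AT read 7.81, 8.97 and 8.56 on transgenic Treg arrays, against 6.25, 7.85 and 8.35 on C57BL/6 Treg arrays. The differences of 1.43 (standard error 0.72) and 0.96 (standard error 0.47) did not pass the test (limma adjusted p = 0.621 and 0.588). On both probe sets the C57BL/6 values rank in the opposite order to the spike readings of those arrays. With the spike reading as a covariate the differences were -0.17 and 0.04, and without C57BL/6 Treg array 1 they were 0.44 and 0.35.

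The strain difference of Fasl in Treg cells minus that in effector cells was 3.61 (standard error 1.02) on 1418803_A_AT and 2.44 (standard error 0.67) on 1449235_AT. Neither passed the test of this difference in the fit without pairing (limma adjusted p = 0.115 and 0.1). A replicate block in the Treg arrays was added after seeing the data, with a pairing read from these same arrays. With it both passed (limma adjusted p = 0.0178 and 0.0129), which is therefore no separate support. A planned replicate block in both populations also let both pass (limma adjusted p = 0.0398 and 0.0399). Array weights did so too (limma adjusted p = 0.00279 and 0.0039), a setting that called 2529 of all 18271 tested probe sets. With the spike reading as a covariate the differences were 2.01 and 1.51 and did not pass (limma adjusted p = 0.114 and 0.136). Without C57BL/6 Treg array 3 they were 4.46 and 2.87 and passed (limma adjusted p = 0.0182 and 0.0408). Without transgenic effector array 3 they were 3.32 and 2.51 and did not pass (limma adjusted p = 0.205 and 0.138). The part of array quality in this result was not tested beyond these fits.

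**Figure D2:**
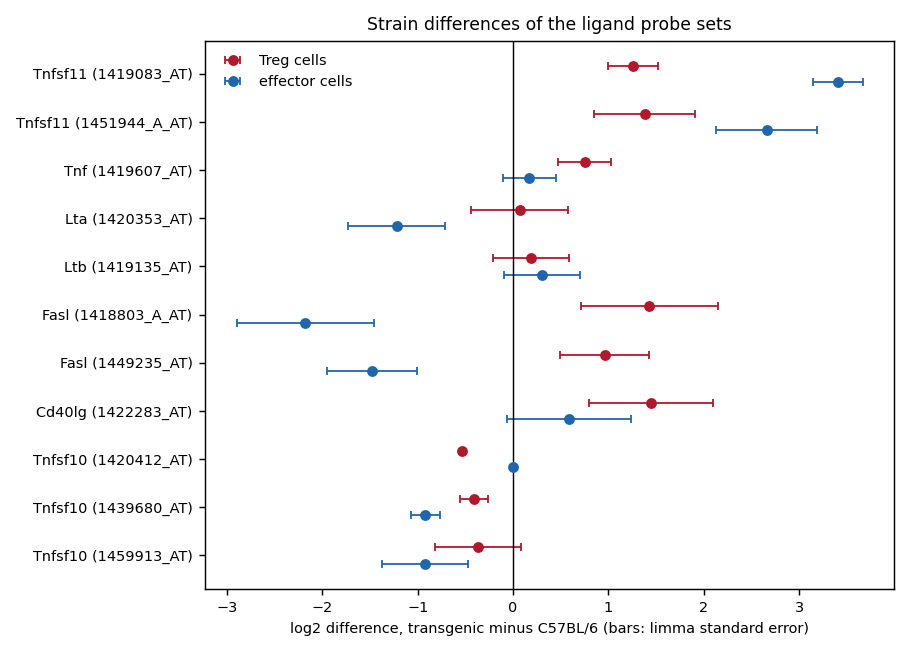
Log2 difference, transgenic minus C57BL/6 (horizontal axis), of each ligand probe set in Treg cells and in effector cells. Points are differences of means of 3 arrays and bars are limma standard errors, left out for 1420412_AT of Tnfsf10, which was not tested. Tnfsf11 lies right of 0 in both populations, and Fasl lies at -2.18 and -1.48 in effector cells.

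**Figure D3:**
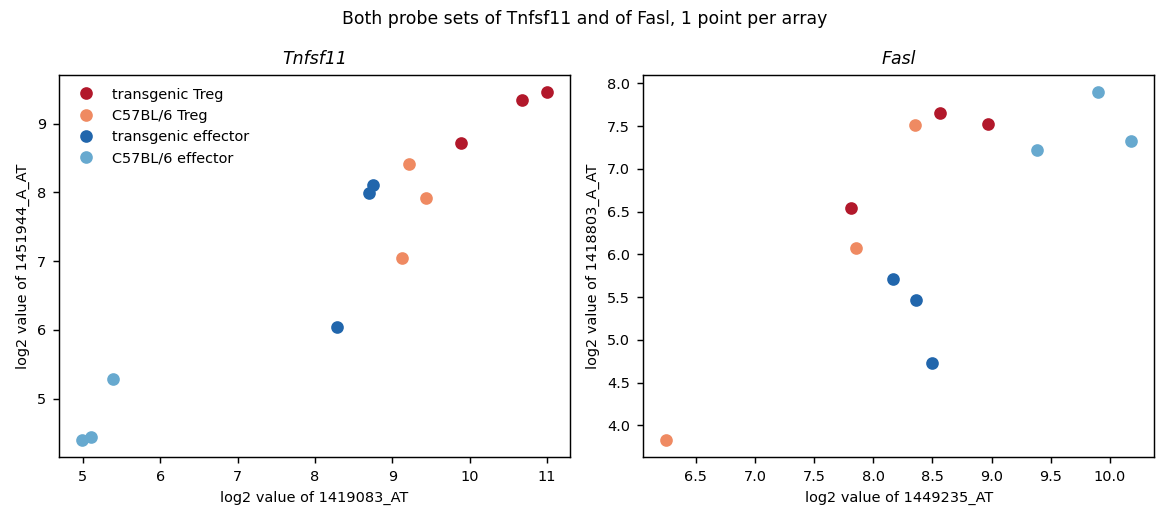
Log2 values of both probe sets of Tnfsf11 (left) and of Fasl (right), 1 point per array, coloured by group. The Tnfsf11 probe sets rise together over 12 arrays (correlation 0.96), and for Fasl the C57BL/6 Treg arrays extend to 6.25 and 3.83, the lowest values of both axes.

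Tnfsf10 (TRAIL), which triggers death through its receptor on target cells, averaged lower in transgenic mice on both tested probe sets in both populations, and passed the test on 1439680_AT in effector cells only. In effector cells 1439680_AT fell to 3.26, 3.24 and 3.31 on transgenic arrays, against 4.31, 4.18 and 4.09 on C57BL/6 arrays. All 6 values were below 5, and what was subtracted as background bears on the size of the difference. The difference was -0.92 (standard error 0.15, limma adjusted p = 0.00614). In the same cells 1459913_AT read 4.35, 3.47 and 2.50 on transgenic arrays, against 4.42, 3.52 and 5.13 on C57BL/6 arrays, and the groups overlapped. Its difference was also -0.92 (standard error 0.45, limma adjusted p = 0.365). Without transgenic effector array 3 the differences were -0.94 on 1439680_AT, which still passed (limma adjusted p = 0.0136), and -0.45 on 1459913_AT.

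In Treg cells Tnfsf10 was above the floor. Probe set 1439680_AT read 6.64, 6.78 and 6.48 on transgenic Treg arrays, against 7.16, 7.01 and 6.97 on C57BL/6 Treg arrays. Probe set 1459913_AT read 6.47, 6.34 and 6.48 on transgenic Treg arrays, against 6.64, 6.81 and 6.97 on C57BL/6 Treg arrays. Neither pair of groups overlapped, and both differences were small, at -0.41 (standard error 0.15) and -0.37 (standard error 0.45). They did not pass (limma adjusted p = 0.349 and 0.915). The third probe set, 1420412_AT, lay at 2.10 to 3.83 on all 12 arrays and was not tested.

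In Treg cells 0 of the 8 tested probe sets of the other genes passed the limma test between strains. Over all probe sets 1.19% were called. An unadjusted limma p under 0.05 was seen in 3 of the 8 (Tnf, Cd40lg and 1439680_AT of Tnfsf10). The share of all probe sets under that p was not taken, so this count is not read. The transgenic and C57BL/6 Treg arrays did not overlap in 4 of the 8 (higher for Tnf and Cd40lg, lower for both of Tnfsf10), against 14.8% of all tested probe sets, 7.65% higher and 7.18% lower. The median difference was 0.47 over the 8 and 0.028 over all tested probe sets.

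Cd40lg, which activates B cells and dendritic cells through CD40, read 5.46, 3.21 and 4.69 on transgenic Treg arrays, against 3.02, 3.00 and 3.00 on C57BL/6 Treg arrays. Only transgenic array 1 lay above 5, and the C57BL/6 arrays sat at the floor with almost no spread. The difference of 1.45 (standard error 0.65) did not pass (limma adjusted p = 0.523) and was 0.94 without transgenic Treg array 1. In effector cells Cd40lg read 7.40, 7.04 and 4.81 on transgenic arrays, against 5.47, 5.87 and 6.15 on C57BL/6 arrays. Transgenic arrays 1 and 2 lay above all C57BL/6 arrays and array 3 below them. The difference was 0.59 (standard error 0.65, limma adjusted p = 0.786), and did not pass. It was 0.09, 0.27 and 1.39 without transgenic effector arrays 1, 2 and 3 (limma adjusted p = 0.232 for the last).

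Tnf, Lta and Ltb lie next to each other on chromosome 17, with Tnf in the middle, in the RefSeq annotation. Lta forms a secreted trimer or joins Ltb in a membrane complex that signals through the lymphotoxin beta receptor in lymphoid organ formation, and Tnf is a main inflammatory cytokine. Over the 6 effector arrays Tnf correlated at -0.73 with Lta and 0.59 with Ltb, and Lta at -0.67 with Ltb. C57BL/6 effector array 2 held the highest Lta (9.05) and the lowest Tnf (6.43) of these 6 arrays. The negative values lean on that array, and correlations without it were not taken. Over the 6 Treg arrays the same pairs correlated at 0.63, 0.64 and 0.85. Whether deviations common to same-numbered Treg arrays bear on these values was not tested.

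Lta read 6.37, 6.73 and 6.60 on transgenic effector arrays, against 7.29, 9.05 and 7.01 on C57BL/6 effector arrays. All transgenic values lay below the C57BL/6 values, of which array 2 stood well above the others. The difference of -1.22 (standard error 0.51) did not pass (limma adjusted p = 0.28) and was -0.58 without C57BL/6 effector array 2 and -1.23 without transgenic effector array 3. In Treg cells Lta read 9.48, 8.73 and 8.87 on transgenic arrays, against 9.73, 8.98 and 8.14 on C57BL/6 arrays. These groups overlapped throughout, with a difference of 0.07 and a standard error of 0.51.

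Tnf read 7.48, 7.19 and 7.05 on transgenic Treg arrays, against 6.96, 6.40 and 6.11 on C57BL/6 Treg arrays. The lowest transgenic value was just above the highest C57BL/6 value, and the difference of 0.75 (standard error 0.28) did not pass (limma adjusted p = 0.364). In effector cells Tnf read 7.24, 7.20 and 6.66 on transgenic arrays, against 6.97, 6.43 and 7.19 on C57BL/6 arrays. These groups overlapped, and the difference of 0.17 (standard error 0.28) did not pass (limma adjusted p = 0.886). It was 0.36 without transgenic effector array 3.

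Ltb had the highest readings of the 11 probe sets and overlapped between strains in both populations. It read 13.82, 13.58 and 12.70 on transgenic Treg arrays, against 13.88, 13.50 and 12.16 on C57BL/6 Treg arrays. In effector cells it read 12.61, 12.95 and 12.66 on transgenic arrays, against 12.31, 12.30 and 12.69 on C57BL/6 arrays. The differences were 0.19 in Treg cells and 0.30 in effector cells (limma adjusted p = 0.963 and 0.834), and that in effector cells was 0.34 without transgenic effector array 3. In both strains the lowest Treg value was that of array 3. These arrays carry sample codes of the array provider apart from those of Treg arrays 1 and 2.

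Set against activated effector cells, Treg cells held more Tnfsf11. On _AT the difference, Treg minus effector, was 1.95 (3.86-fold) in transgenic and 4.10 (17.1-fold) in C57BL/6 mice, with a standard error of 0.26 each. On _A_AT it was 1.80 in transgenic and 3.08 in C57BL/6 mice, with a standard error of 0.53 each. Without transgenic effector array 3 the values in transgenic mice were 1.80 on _AT and 1.13 on _A_AT. No overlap between the groups was seen in these 4 comparisons, as in 73.9% of all tested probe sets in transgenic and 76.7% in C57BL/6 mice. Culture, pooling and sample code differ between the populations and cannot be told apart from cell type.

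Of the 8 tested probe sets of the other genes, 5 (Tnf, Lta, Ltb and both of Fasl) reached a log2 of 5 on 3 arrays in both populations. Of these 5, the Treg and effector cells of transgenic mice differed past the threshold in 2, both higher in Treg cells, and those of C57BL/6 mice in 1, lower in Treg cells. Of all tested probe sets, limma called 70.0% in transgenic mice, 30.0% higher and 40.0% lower. In C57BL/6 mice it called 73.8%, 31.7% higher and 42.0% lower. These shares include probe sets that reached 5 in 1 population only, so they are not a like measure for the 5. Cd40lg and both of Tnfsf10 reached 5 on 3 arrays in 1 population only, so the filter itself favoured a difference between the populations. Their values are described with no test, and the counts over all 8, which were 5 in transgenic and 4 in C57BL/6 mice, are not read. The median of all tested probe sets was -0.21 in transgenic and -0.26 in C57BL/6 mice, and differences should be read relative to it.

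Lta was higher in Treg cells of transgenic mice by 2.45 (standard error 0.51, limma adjusted p = 0.00114), and by 2.47 without transgenic effector array 3 (limma adjusted p = 0.0038). In C57BL/6 mice the difference was 1.17 (limma adjusted p = 0.0572). It was 1.80 without C57BL/6 effector array 2 and 1.57 without C57BL/6 Treg array 3, and passed in both (limma adjusted p = 0.00239 and 0.0193). It also passed with each array centred on its median, with quantile normalization and with array weights (limma adjusted p = 0.0422, 0.0207 and 0.00275). The weights of C57BL/6 Treg arrays 1, 2 and 3 were 0.45, 5.02 and 0.236, so weighted means of that group rest mostly on array 2. The probe sets of Fasl gave different sizes in the same comparison. In transgenic mice 1418803_A_AT was higher in Treg cells by 1.93 (limma adjusted p = 0.0316), while 1449235_AT differed by 0.10 (limma adjusted p = 0.857). Without transgenic effector array 3 these differences were 1.65 and 0.18. In C57BL/6 mice 1449235_AT fell by 2.34 in Treg relative to effector cells (limma adjusted p = 0.000844), and 1418803_A_AT differed by -1.67 (limma adjusted p = 0.0543). The value on 1418803_A_AT ranged from -2.53 to -0.69 with 1 array left out, and passed without C57BL/6 Treg array 3 (-2.53, limma adjusted p = 0.00289) and with array weights (limma adjusted p = 0.000561). The call of 1418803_A_AT in transgenic mice was lost with quantile normalization (limma adjusted p = 0.0592), without transgenic effector array 1 or 3 (limma adjusted p = 0.0573 and 0.0965) and without transgenic Treg array 2 or 3 (limma adjusted p = 0.0859 and 0.0932).

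Neither Tnf nor Ltb passed between populations in the fit of all 12 arrays. The difference of Tnf was 0.21 in transgenic and -0.37 in C57BL/6 mice (limma adjusted p = 0.527 and 0.244), and array weights gave a call in C57BL/6 mice (-0.45, limma adjusted p = 0.0207). That of Ltb was 0.63 in transgenic and 0.75 in C57BL/6 mice (limma adjusted p = 0.175 and 0.108). With quantile normalization Ltb passed in both strains, at 1.15 in transgenic and 1.35 in C57BL/6 mice (limma adjusted p = 0.0137 and 0.00525). It also passed in both without C57BL/6 Treg array 3, at 0.63 and 1.26 (limma adjusted p = 0.0458 and 0.00239), and in C57BL/6 mice with array weights (1.12, limma adjusted p = 0.000285). The transgenic values without effector array 3 were 0.02 for Tnf and 0.59 for Ltb.

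Tnfsf10 lay higher in Treg cells of both strains. On 1439680_AT the difference was 3.37 in transgenic mice and 2.85 in C57BL/6 mice, with a standard error of 0.15 each. On 1459913_AT it was 2.99 in transgenic mice and 2.45 in C57BL/6 mice. The transgenic values were 3.38 and 2.52 without transgenic effector array 3. Cd40lg averaged lower in Treg cells, at a log2 difference of -1.96 in transgenic mice and -2.82 in C57BL/6 mice. It was -2.76 in transgenic mice without effector array 3. The transgenic groups overlapped, with Treg array 1 at 5.46 and effector array 3 at 4.81. In both strains the lower group of Tnfsf10 and of Cd40lg averaged below 5, so these sizes depend on the background correction.

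**Figure D4:**
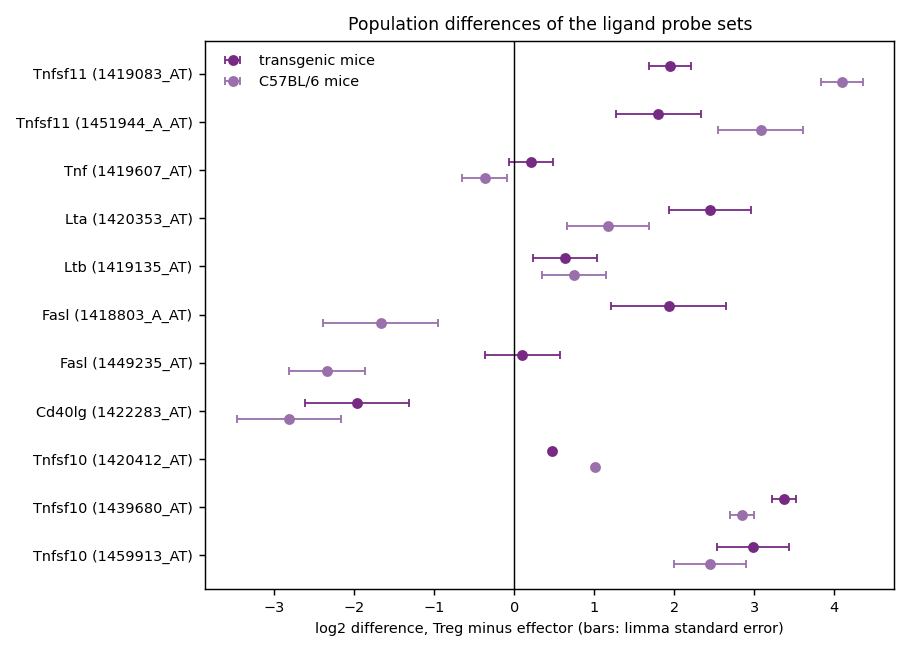
Log2 difference, Treg minus effector (horizontal axis), of each ligand probe set in transgenic and in C57BL/6 mice. Points are differences of means of 3 arrays and bars are limma standard errors, left out for 1420412_AT of Tnfsf10. Tnfsf11 lies right of 0 in both strains, at 1.95 and 4.10 on _AT, and Cd40lg lies left of 0.

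The test of the difference between strain contrasts found 0 of the 8 probe sets past the limma threshold, against 2.26% of all tested probe sets. An unadjusted limma p under 0.05 was seen in 3 (both of Fasl and 1439680_AT of Tnfsf10), with no share over all probe sets taken. The median of this difference was 0.72 over the 8 and 0.034 over all tested probe sets. Strain changes of the 6 genes are thus not shown to differ between the populations in this fit. Both of Fasl and 1439680_AT of Tnfsf10 passed in some of the other fits only.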

How the data were processed

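Expression was measured on Affymetrix arrays, from RNA amplified 1 time, per the labels' protocols. The deposited values are log2 values made with GCRMA by the authors, per the submitters' processing notes, whose version, like whether both populations were normalized together, the sources used here do not give. Each group's 3 samples are biological replicates, per the series' design text, and replicate numbers follow the titles. The description fields of some effector samples carry other numbers, so effector numbers are uncertain.

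Group means of the 4 groups were estimated together from 12 arrays with limma 3.58.1 under R 4.3.3 (eBayes with trend), over 18271 probe sets with a log2 value of at least 5 on at least 3 arrays; 64 control probe sets were left out. A call is an adjusted p below 0.05, by Benjamini-Hochberg over all tested probe sets. The model was tested on simulated data. The number of arrays limits the precision. All 11 members are named, with the genes given with the list; the _AT probe set of Tnfsf11 is 1419083_AT and the _A_AT one 1451944_A_AT. The most alike probe sets were ranked by Pearson correlation with 1419083_AT, and the top 2 are named. The lists of related ligands, receptors, adaptors, NF-kappaB genes, sheddases and cell type markers were not tested, since no probe annotation was used here. The members and lists were chosen with earlier results of these data known.

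Same-numbered arrays of both strains correlated, in their deviations from the group means, at 0.58, 0.10 and 0.51 in Treg cells, each above the minimum of 0.1, so these were taken as paired, a reading of the data only. The main fit holds no term for this pairing, which entered only the fits with a replicate block. Transgenic Treg array 2 correlated at 0.11 with C57BL/6 Treg array 3, so its pairing is weak. In effector cells same-numbered arrays correlated at 0.21, -0.34 and -0.34 and were not paired. Alternatives were other filters, normalizations, variance models and weights, fits to fewer arrays, and terms for replicate number, sample code and, added after seeing the data, spike reading and a block in the Treg arrays only. The sample code block gave array 3 of each Treg group a term of its own. Treg strain differences in that fit therefore rest on Treg arrays 1 and 2 alone. Figures were drawn with matplotlib 3.10.9.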

Additional observations from a re-analysis of the deposited data

How the results depend on the processing

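With other settings the counts of called probe sets of the 6 genes other than Tnfsf11 moved as follows. Between strains in Treg cells the count was 0, and 1 with array weights. In effector cells it was 1, but 0 with a filter at a log2 value of 7, which leaves 5 of the 8 probe sets, 4 with array weights, and 2 with the arrays of the contrast alone, both Fasl; there 1439680_AT of Tnfsf10, the 1 call otherwise, was not tested, as no effector array reached 5. With 1 array left out it ranged from 1 to 3 (without C57BL/6 Treg array 1). The count for the difference of strain contrasts was 0, but 3 with array weights, 2 with the replicate block in both populations, 2 with the replicate block in the Treg arrays only and 1 with the sample code block, and ranged from 0 to 2 with 1 array left out (2 without C57BL/6 Treg array 3). For Treg against effector cells a filter at 7 left 2 calls in transgenic and 1 in C57BL/6 mice. The arrays of the contrast alone gave 4 in transgenic mice, against 5. In C57BL/6 mice the 4 calls became 5 without a filter, 5 with median centring, 6 with quantile normalization and 8 with array weights. Over all probe sets, array weights called 15643 of 18271 in that comparison and quantile normalization 12759 of 18188. Leaving out 1 array gave 3 (without transgenic effector array 1 or transgenic Treg array 2) to 6 in transgenic and 4 to 7 (without C57BL/6 Treg array 3) in C57BL/6 mice. Apart from the filter at 7, these population counts include Cd40lg and both of Tnfsf10, which the filter favoured, and are not read. The replicate block changed neither strain count.

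Over all probe sets, the 218 Treg strain calls became 1232 with array weights, 565 with the spike covariate, 354 with the replicate block in the Treg arrays only, 135 with a filter at 7 and 68 with the Treg arrays alone, and 89 (without C57BL/6 Treg array 2) to 232 with 1 array left out. The 547 effector strain calls became 3033, 347 without a filter and 273 with the effector arrays alone, and 243 to 629 with 1 array left out. The 413 calls of the difference became 2529 with array weights and 198 to 399 with 1 array left out. The 12789 population calls of transgenic and 13475 of C57BL/6 mice became 31397 and 31870 without a filter, which tests 45037 probe sets.

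The Tnfsf11 strain differences kept their direction under all alternatives, at 2.91 to 3.56 and 2.27 to 3.33 in effector cells and 1.03 to 1.58 and 0.79 to 1.69 in Treg cells on _AT and _A_AT. The signs that turned belong to values that did not pass. In the Treg strain contrast Lta was -0.07 with array weights, -0.25 with the sample code block and -0.33 to 0.46 with 1 array left out, and Ltb was -0.21 with array weights and -0.32 to 0.54. Fasl 1418803_A_AT was -0.17 with the spike covariate. In effector cells Tnf was -0.04 to 0.36 with 1 array left out. In the difference of strain contrasts Ltb was 0.59 with the spike covariate and -0.63 to 0.23 with 1 array left out, and Cd40lg was -0.11 with array weights. Fasl 1449235_AT between populations in transgenic mice was -0.16 to 0.42. The cause was not tested, other than the fewer probe sets or arrays named.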
